A study of Mus musculus with 34 samples.

Results

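A set of 10 genes of the doublecortin family, the collapsin response mediator protein (CRMP) family and the Cdk5 kinase were followed, out of 19057 genes with a probe on the array. The rule took every probe annotated to Dcx, Dclk1, Dclk2, Crmp1, Dpysl2, Dpysl3, Dpysl4, Dpysl5, Cdk5r1 or Cdk5, which gave 25 probes for the 10 genes. The genes were chosen from earlier results of these same arrays, so their calls describe these arrays and are no independent evidence. The study measured total RNA of mouse neural stem cells on 34 Illumina MouseWG-6 v2 arrays. C17.2 is an immortalised mouse neural stem cell line. It was given an empty retroviral vector (control), STAT3C, CEBPB, or STAT3C with CEBPB, on 4 arrays each. Primary neural stem cells (NSC), prepared from E13.5 telencephalon, received the same 4 kinds of vector, with the control named as pBabe. They gave 5 control, 4 STAT3C, 4 CEBPB and 5 STAT3C+CEBPB arrays. STAT3C is a constitutively active form of the transcription factor STAT3, and CEBPB is a basic leucine zipper transcription factor. The source label of the NSC arrays with both vectors names STAT3, while their description and transduction labels name STAT3C, and the second was followed here. All cells had been through retroviral transduction, and nothing in the labels ties an array to a culture of its own, so the p-values measure the spread between arrays, which may be technical. Replicate numbers follow accession order and only name arrays.

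Doublecortin (Dcx) and its relatives Dclk1 and Dclk2, which join a doublecortin domain to a kinase domain, bind and stabilise microtubules, and Dcx is a widely used marker of migrating young neurons. CRMPs were found as mediators of growth cone collapse downstream of semaphorins, and Dpysl2 (CRMP2) binds tubulin. Cdk5 is a kinase that becomes active when bound to p35, the product of Cdk5r1, and it phosphorylates doublecortin and several CRMPs in developing neurons.

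Levels are log2 signals after background correction and quantile normalisation of each cell type apart, and a gene is represented by its brightest probe that passed a detection filter. A gene is called at an adjusted p below 0.05, by limma with Benjamini-Hochberg adjustment over all genes tested. Counts at an unadjusted p below 0.05 are given without the share of all genes at that level, so they show no enrichment. Between 33.8% and 35.9% of probes were detected on each C17.2 array, and between 36.3% and 41.7% on each NSC array. The 4 C17.2 controls filled slide 1 alone, so any C17.2 difference from control may be one of vector or of slide, which cannot be told apart. In NSC the controls and STAT3C shared slide 4, CEBPB and STAT3C+CEBPB shared slide 5, and every group had arrays on slide 6. NSC fits carry a slide term, and differences that cross slides 4 and 5 rest on slide 6. Some arrays stood apart. The replicate 4 array of each NSC group, on slide 6, detected 0 of 4 Xist probes, where the other NSC arrays detected 4. The C17.2 arrays split along a first principal component holding 50.2% of the variance, with all 4 controls at -45.4 to -21.3 and the arrays of each transduced group on both sides of 0. The first NSC component held 46.8%. On it replicate 4 arrays lay at -49.1 to -45.3, replicate 5 arrays at -14.6 and -10.5, and slides 4 and 5 at 9.41 to 21.6. Slide 6 thus held unlike sets of arrays, which the slide term takes as the same level. Without the NSC replicate 4 arrays slide 6 keeps replicate 5 of control and of both vectors, so the difference between these groups is then that of 1 array from 1 array, with its error taken from slides 4 and 5. Of neural stem and radial glia markers, C17.2 detected Nes, Sox2, Vim and Hes1 on every array and Pax6, Fabp7, Hes5 and Msi1 on none. NSC detected 7 of 11 on every array, Nes, Sox2, Vim, Fabp7, Slc1a3, Hes1 and Notch1, and Pax6 and Msi1 on none.

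The filter, detection on at least 4 arrays of a cell type, passed 8 of the 10 genes in C17.2 and 9 in NSC. Dcx passed in neither. All 4 of its probes were undetected on all 16 C17.2 arrays, at log2 levels from 4.25 to 5.02, and in NSC 1 probe was detected on 2 of 18 arrays, control replicates 1 and 2, at 5.0 and 4.95. Dpysl5 (CRMP5) was undetected on every C17.2 array by both of its probes. Of 20 young neuron markers with a probe, C17.2 arrays detected 3 throughout (Sox4, Dlx1 and Ncam1) and 10 on no array, and NSC arrays detected 6 throughout and 5 on no array. In bulk RNA, fewer cells of a type and less RNA per cell cannot be told apart.

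The control arrays show how the level with the empty vector differs between the cell types, from a joint normalisation of all 34 arrays. Of the 9 genes tested, 5 were lower in C17.2 than in NSC and none was higher, where 48.5% of all 11713 genes were called in either direction. Dclk1 averaged 5.24 ± 0.27 (SD, n = 4) in C17.2, where 2 of 4 controls detected it, and 8.78 ± 0.31 (SD, n = 5) in NSC, a log2 difference of -3.54 (SE 0.34, limma adjusted p = 4.14e-10). Dclk2 averaged 7.40 ± 0.96 and 9.80 ± 0.21, a difference of -2.40 (SE 0.28, limma adjusted p = 2.25e-08). Both doublecortin-like kinases thus stood higher in every NSC control than in every C17.2 control. The share of all genes separated in this way was not counted for the controls. Dpysl3 (CRMP4) differed by -1.70 (SE 0.70, limma adjusted p = 0.044), although its C17.2 controls ran from 4.64 to 8.46 and overlapped the NSC range of 7.29 to 8.42. The Dpysl3 call held under 3 of 7 other settings and was lost without any 1 of C17.2 control replicates 2 and 4 and NSC control replicates 1, 2 and 3 (largest adjusted p = 0.202). Cdk5 differed by -0.80 (SE 0.24, limma adjusted p = 0.00675). Dpysl5 was at least 1.11-fold higher in NSC (limma adjusted p = 0.0256), the bound against the lowest level detected on the C17.2 arrays. The Dpysl5 call held under 4 of 7 other settings and was lost without C17.2 control replicate 1 or NSC control replicate 5 (largest adjusted p = 0.0655). Crmp1 leaned the other way, at 6.86 ± 0.54 in C17.2 and 5.56 ± 0.18 in NSC, and was not called (difference 1.30, SE 0.58, limma adjusted p = 0.0622). Cdk5r1 (8.28 ± 0.24 and 8.35 ± 0.27), Dpysl2 (11.09 ± 0.28 and 11.03 ± 0.32) and Dpysl4 were not called, with 95% intervals of the difference of -0.51 to 0.37, -0.24 to 0.36 and -1.60 to 0.15. With the NSC controls of slide 6 alone, 3 of the 9 genes were called, and Dpysl3 and Cdk5 were not. With the deposited normalised values 2 were called, Dclk1 and Dclk2. Cell type and slide cannot be told apart here, since no slide held both.

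**Figure D1:**
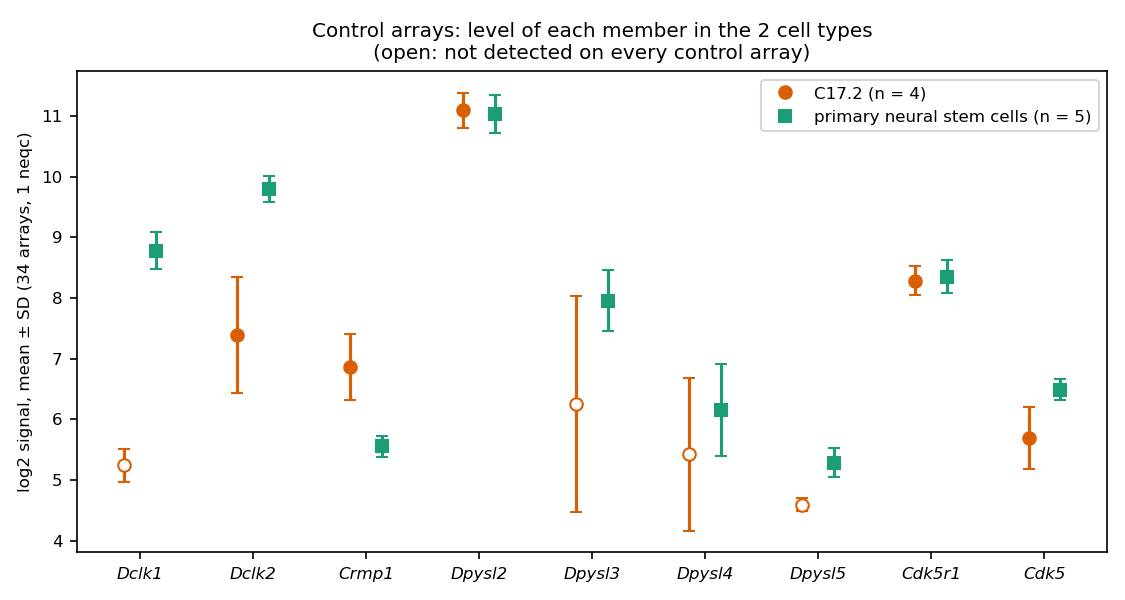
Level of each gene on the control arrays, as mean ± SD of the log2 signal over 4 C17.2 arrays (circles) and 5 NSC arrays (squares), from 1 normalisation of all 34 arrays. Open symbols mark a gene not detected on every control array of that cell type. Dclk1 and Dclk2 differ by -3.54 and -2.40 (C17.2 minus NSC), while Dpysl2 and Cdk5r1 differ by 0.06 and -0.07. Heights of different genes come from different probes and are not compared.

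In C17.2 cells Cdk5r1, the gene of the Cdk5 activator p35, fell with CEBPB and with both vectors. It lies on chromosome 11 from 80477023 to 80481184 of GRCm38.p6. It read 8.37, 7.82, 8.31 and 8.27 on the control arrays, 7.88, 6.86, 7.20 and 7.30 with STAT3C, 6.66, 6.24, 6.68 and 7.26 with CEBPB, and 6.93, 6.30, 6.71 and 6.47 with both vectors. All CEBPB and all STAT3C+CEBPB arrays lay below all controls, and the STAT3C arrays overlapped the controls by 1 array, replicate 1. Of all 9699 genes 14.5% did not overlap between CEBPB and control, and 8.57% between both vectors and control. Cdk5r1 fell by 1.48 on the log2 scale with CEBPB (2.80-fold lower, SE 0.24, limma adjusted p = 0.0122) and by 1.59 with both (3.01-fold lower, SE 0.24, limma adjusted p = 0.00739). With STAT3C the change was -0.88 (SE 0.24, limma adjusted p = 0.223). A second Cdk5r1 probe, matched to another transcript, was detected on all 4 controls, on 2 STAT3C arrays and on no CEBPB or STAT3C+CEBPB array, which puts both latter groups at least 1.64-fold below control (limma adjusted p = 0.029 and 0.0415 over 15148 detected probes). This probe passed the detection filter through the control arrays, where it was highest, so its calls are not separate support for the fall. The remaining Cdk5r1 probe was undetected on all 34 arrays. Without control replicate 1, CEBPB replicate 1 or CEBPB replicate 2 the CEBPB call was lost (largest adjusted p = 0.0619), and with the first principal component as a covariate the CEBPB change was -1.31 (adjusted p = 0.149). The fall with both vectors was called under each of 9 other settings and without each of the 16 arrays.

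Of the 8 genes tested in C17.2, Cdk5r1 was thus the 1 called with CEBPB, where 1.62% of all 9699 genes were called, and with both vectors, where 0.577% were. No member was called with STAT3C, where 0.0103% of genes were (1 member had an unadjusted p below 0.05 by limma). Between both vectors and STAT3C alone 0.186% of genes and no member were called (1 member with an unadjusted p below 0.05, Cdk5r1, at -0.71, SE 0.24, adjusted p = 0.319). Between both vectors and CEBPB alone 0% of genes were called, and 0 members had an unadjusted p below 0.05 by limma. The non-additivity term, which takes the 2 single changes from the joint one, called 0% of genes, and for Cdk5r1 it was 0.78 (SE 0.34, limma adjusted p = 0.441), the 1 member with an unadjusted p below 0.05.

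**Figure D2:**
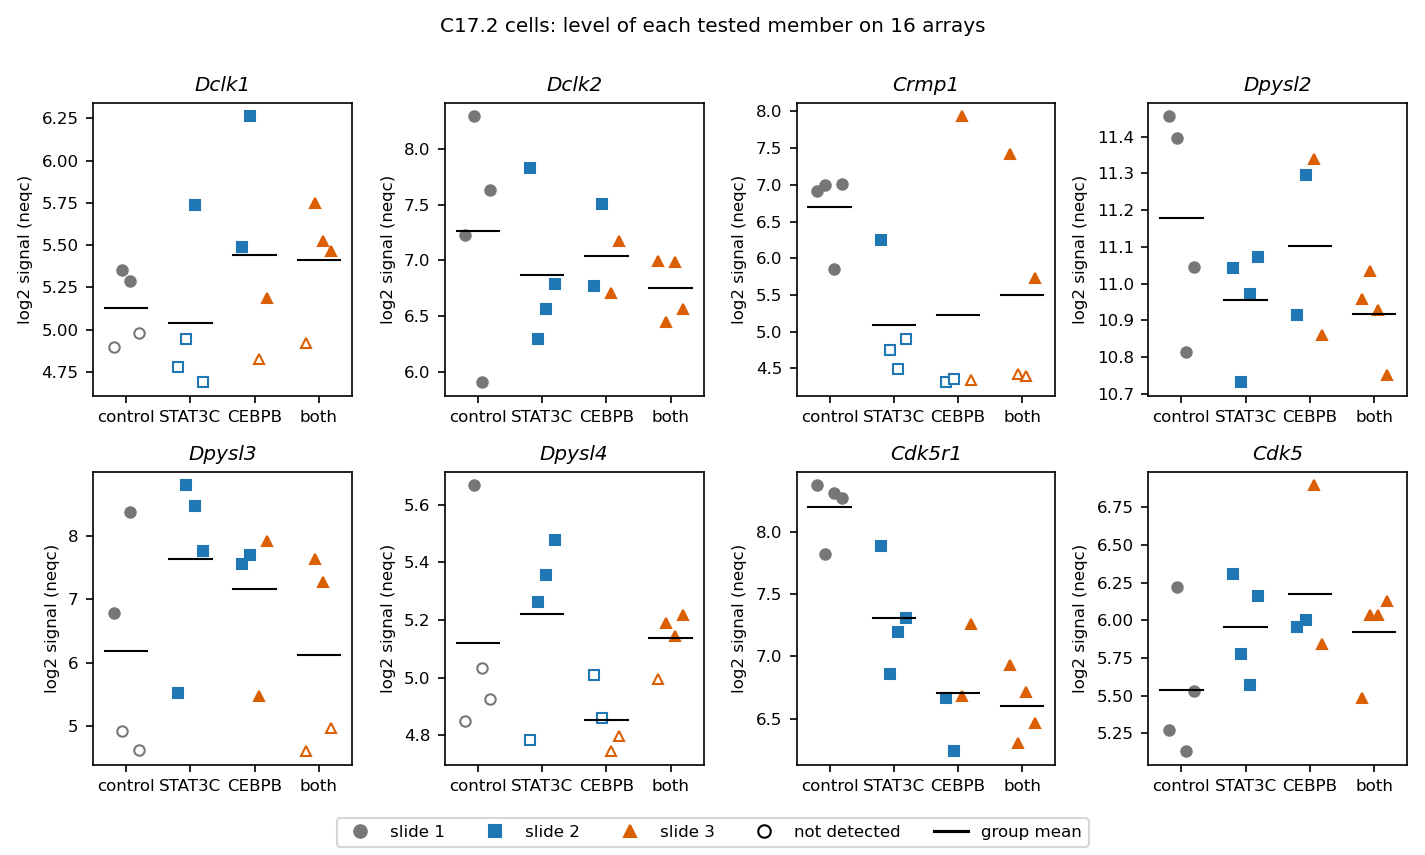
Log2 signal of the 8 genes that passed the detection filter on the 16 C17.2 arrays, by vector, with 1 point per array, symbols by slide, open symbols for arrays without detection and a line at the group mean. Cdk5r1 lies at 7.82 to 8.37 in control and at 6.24 to 7.26 with CEBPB, and Crmp1 and Dpysl3 spread widely inside single groups.

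In the CRMP family of C17.2 cells no gene was called, and Crmp1 and Dpysl3 spread widely within groups. Crmp1 read 6.91, 7.0, 5.86 and 7.01 in control, 6.24, 4.75, 4.49 and 4.89 with STAT3C, 4.31, 4.35, 7.93 and 4.34 with CEBPB, and 7.43, 4.42, 4.39 and 5.73 with both. It was detected on all controls, and in the transduced groups on STAT3C replicate 1, CEBPB replicate 3 and STAT3C+CEBPB replicates 1 and 4. The changes were -1.60, -1.46 and -1.20 (SE 0.79 each, limma adjusted p = 0.411, 0.277 and 0.438). Another detected Crmp1 probe changed by -0.666, -0.415 and -0.142 (limma adjusted p = 0.396, 0.45 and 0.848 over 15148 detected probes). Without CEBPB replicate 3 no remaining CEBPB array detected Crmp1, control was at least 3.11-fold higher, the bound against the lowest level detected on those arrays, and the fit called the fall (limma adjusted p = 0.035). Its within-group SD of 1.25 was larger than that of 98% of tested genes. Dpysl3, a CRMP of developing and injured neurons, read 6.78, 4.93, 8.38 and 4.63 in control, 5.52, 8.79, 8.46 and 7.76 with STAT3C, 7.55, 7.69, 5.48 and 7.91 with CEBPB, and 4.61, 7.62, 7.27 and 4.97 with both. Its groups overlapped throughout, its within-group SD was 1.49, above 98.9% of genes, and its changes of 1.45, 0.98 and -0.06 were not called (SE 0.94, limma adjusted p = 0.539, 0.565 and 0.979).

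In each of the 4 C17.2 groups, the array with the highest Crmp1 had the lowest Dpysl3, a pattern noticed after the values were seen. These were control replicate 4, STAT3C replicate 1, CEBPB replicate 3 and STAT3C+CEBPB replicate 1. The array with the lowest Crmp1 had the highest Dpysl3 in the control group, at replicate 3, and not in the 3 others. The arrays fall into clusters, so no correlation is given. On the first principal component, CEBPB replicate 3 lay at -22.4 and the other CEBPB arrays at 36.7 to 43, and STAT3C+CEBPB replicates 1 and 4 lay at -25 and -20.3 and replicates 2 and 3 at 41.4 and 41.6. Those with negative scores were the arrays that detected Crmp1 in both groups, while STAT3C replicate 2 had a negative score of -12.3 without detecting it. The part of that split in the Crmp1 and Dpysl3 values was not tested.

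**Figure D3:**
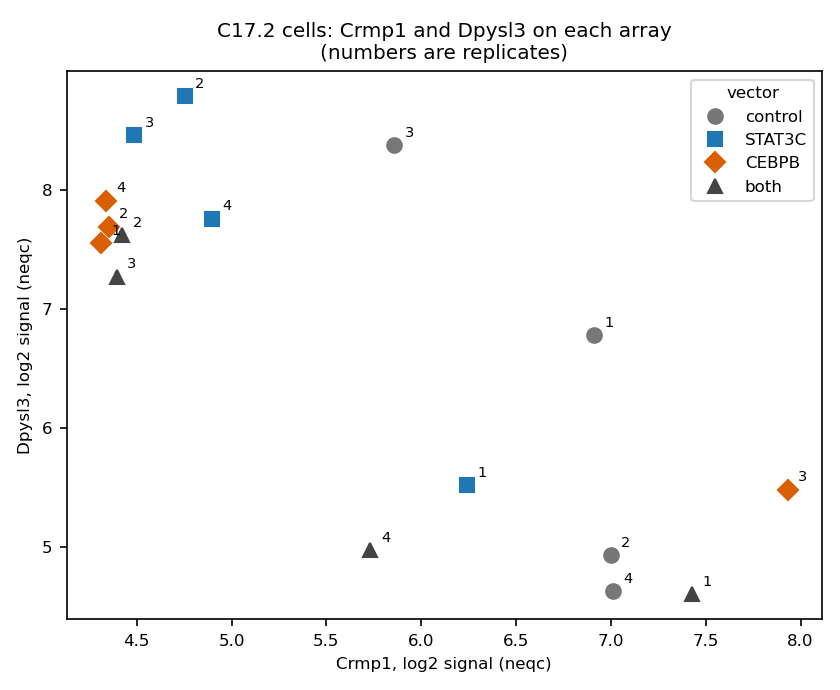
Log2 signals of Crmp1 (horizontal) and Dpysl3 (vertical) on the 16 C17.2 arrays, with symbols by vector and replicate numbers beside the points. Arrays of each transduced group stand both at the upper left, with Crmp1 below 5 and Dpysl3 above 7, and at the lower right or lower centre, as CEBPB replicate 3 does at 7.93 and 5.48.

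The other genes of C17.2 cells were not called in any comparison with control. Dpysl2 (CRMP2) stayed between 10.73 and 11.46 on all 16 arrays by its main probe, with changes of -0.22, -0.08 and -0.26 (SE 0.16) for STAT3C, CEBPB and both. Dpysl4 (CRMP3) lay near background by its main probe, at 4.75 to 5.67, and another probe of it read 7.14 on control replicate 2 and was undetected on the 15 other arrays. Dclk1 was near background too, from 4.69 to 6.26, with changes of -0.09, 0.31 and 0.28 (SE 0.29). Dclk2 ran from 5.91 to 8.29, both extremes in the control group, with changes of -0.39, -0.22 and -0.51 (SE 0.42). Cdk5, the catalytic partner of p35, read 5.27, 6.22, 5.13 and 5.53 in control and 5.96, 6.0, 6.89 and 5.85 with CEBPB, a change of 0.64 (SE 0.27, limma adjusted p = 0.178).

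In NSC the genes called against control were Dclk1, Crmp1 and Dpysl5, all with both vectors together. STAT3 and CEBPB bind DNA, so the promoter windows of these 3 genes are shown, from 250 bases before to 50 after an annotated start, in the RefSeq table of GRCm38.p6, plus strand, with CG pairs in capitals. They lie at chr3:55242114-55242413 for Dclk1, chr5:37241808-37242107 for Crmp1 and chr5:30711314-30711613 for Dpysl5.
Dclk1: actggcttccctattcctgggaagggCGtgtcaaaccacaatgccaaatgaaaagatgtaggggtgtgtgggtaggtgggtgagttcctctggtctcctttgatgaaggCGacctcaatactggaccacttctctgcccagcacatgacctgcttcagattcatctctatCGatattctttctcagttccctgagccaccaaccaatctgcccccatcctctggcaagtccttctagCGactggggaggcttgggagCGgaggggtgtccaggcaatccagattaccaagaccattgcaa
Crmp1: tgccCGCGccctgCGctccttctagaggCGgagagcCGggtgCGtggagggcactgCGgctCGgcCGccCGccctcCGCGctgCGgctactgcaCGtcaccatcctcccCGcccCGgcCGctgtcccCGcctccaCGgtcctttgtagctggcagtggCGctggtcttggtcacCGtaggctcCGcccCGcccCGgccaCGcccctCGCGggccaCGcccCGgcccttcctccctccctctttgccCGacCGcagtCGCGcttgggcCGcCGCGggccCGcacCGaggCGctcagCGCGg
Dpysl5: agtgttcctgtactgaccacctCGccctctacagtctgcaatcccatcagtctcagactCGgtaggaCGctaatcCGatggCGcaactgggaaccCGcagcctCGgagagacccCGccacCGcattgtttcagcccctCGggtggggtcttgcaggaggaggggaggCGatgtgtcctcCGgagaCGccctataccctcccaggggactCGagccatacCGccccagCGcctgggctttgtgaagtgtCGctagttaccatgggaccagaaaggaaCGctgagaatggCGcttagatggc
The Crmp1 window holds 41 CG pairs and the Dclk1 window 5, against a median of 7 over 32817 windows of that length. Crmp1 and Dclk1 each have another window in the table, not shown, with 20 and 6 CG pairs. None of the 3 contains TTCNNNGAA, a STAT motif, or TTGCNNAA (TTNNGCAA on the other strand), a C/EBP motif, with no overlap between the letters searched. Of all windows 8.29% contain the first and 10.8% the second. The result is given for 8 windows from 5 of the 10 genes, and 0 of these windows contain either. No result is given for the remaining members, so nothing is said of their windows. The search covers these letters in these windows and says nothing of binding.

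Dclk1, on chromosome 3 from 55242303 to 55539068, read 8.76, 8.77, 8.64, 8.66 and 9.35 in NSC control, 8.48, 8.42, 8.38 and 8.08 with STAT3C, 9.53, 9.49, 9.29 and 7.39 with CEBPB, and 7.82, 7.71, 7.74, 7.15 and 7.63 with both. All 5 arrays with both vectors lay below all controls and all STAT3C arrays, and the CEBPB group was split between replicate 4 and the rest. Of all 10858 genes 2.78% did not overlap between both vectors and control, and 5.7% between both vectors and STAT3C. All STAT3C arrays also lay below all controls, where 1.08% of all genes did not overlap. The change with STAT3C was -0.49 (SE 0.24, limma adjusted p = 0.854) and was not called. With both vectors Dclk1 fell by 1.85 on the log2 scale (3.61-fold lower, SE 0.31, limma adjusted p = 0.00426), and relative to CEBPB alone it fell by 1.16 (SE 0.24, limma adjusted p = 0.011). The call relative to CEBPB was lost with the mean of the detected probes (-0.53, adjusted p = 0.0855) and without a slide term (-1.31, adjusted p = 0.0644). Relative to STAT3C the difference was -1.36 (SE 0.34, limma adjusted p = 0.111). On slide 6 alone the controls read 8.66 and 9.35 and the arrays with both vectors 7.15 and 7.63, and on slide 5 CEBPB averaged 9.43 and both vectors 7.76. On slide 6 the 1 CEBPB array, replicate 4, read 7.39, between the arrays with both vectors. The CEBPB minus control estimate of -0.69 (SE 0.34, limma adjusted p = 0.602) links slides 4 and 5 through the slide 6 arrays of every group. The plain group means were 8.92 and 8.84. Without the 4 replicate 4 arrays the change with both vectors was -1.71 (adjusted p = 0.00042), which is replicate 5 minus replicate 5 on slide 6. Without them it was -1.42 relative to STAT3C (adjusted p = 0.0117), through the same 2 arrays, and -1.68 relative to CEBPB (adjusted p = 9.09e-07), from 3 arrays each on slide 5. The non-additivity term for Dclk1 was -1.38 (adjusted p = 0.000275), against -0.67 with them (adjusted p = 0.393). The 2 other detected Dclk1 probes read -0.70 and -0.81 with both vectors (limma adjusted p = 0.115 and 0.177 over 17374 detected probes), so neither was called.

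Crmp1, a CRMP of developing neurons on chromosome 5 from 37242058 to 37292163, read 5.79, 5.66, 5.70, 5.37 and 5.89 in NSC control, 6.04, 5.96, 6.08 and 5.38 with STAT3C, 5.35, 4.73, 5.44 and 6.03 with CEBPB, and 6.20, 6.04, 5.91, 6.64 and 6.60 with both. Each array with both vectors lay above each control, and they overlapped the STAT3C and the CEBPB arrays. Crmp1 rose by 1.18 with both vectors (2.27-fold, SE 0.20, limma adjusted p = 0.00426) and by 0.79 relative to CEBPB alone (SE 0.16, limma adjusted p = 0.00822). The second call was lost without a slide term (0.89, adjusted p = 0.0718). Relative to STAT3C the difference was 1.05 (SE 0.22, limma adjusted p = 0.0542), and 7 of the other settings called it. Its plain group means differed by less than the slide-adjusted estimate, at 6.28 against 5.68. Without a slide term the rise was 0.59 (adjusted p = 0.187), and without the 4 replicate 4 arrays it was 0.71 (adjusted p = 0.183), from 1 array per group on slide 6, and neither was called. The main probe was detected on 3 of 4 CEBPB arrays. Another Crmp1 probe failed the detection filter in NSC, with means of 4.711 in control and 4.655 with both vectors. The direction of the main probe's rise is opposite to the uncalled changes of Crmp1 in C17.2.

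Dpysl5, on chromosome 5 from 30711564 to 30799369, read 5.39, 5.10, 5.16, 5.52 and 5.77 in NSC control, 5.49, 5.53, 5.27 and 5.82 with STAT3C, 4.75, 5.07, 5.08 and 6.75 with CEBPB, and 5.28, 5.36, 5.29, 6.51 and 6.26 with both. The groups overlapped, and the slide 6 arrays were the highest of each group. It rose by 0.91 with both vectors (1.87-fold, SE 0.17, limma adjusted p = 0.00904), and the CEBPB estimate was 0.78 (SE 0.19, limma adjusted p = 0.186). The rise was not called without a slide term (0.35, adjusted p = 0.729), with slide as a random block (0.69, adjusted p = 0.114) or without the 4 replicate 4 arrays (0.48, adjusted p = 0.234, again from 1 array per group). On slide 6 the controls read 5.52 and 5.77 and the arrays with both vectors 6.51 and 6.26, while across slides 4 and 5 the control and both-vector means were 5.22 and 5.31.

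**Figure D4:**
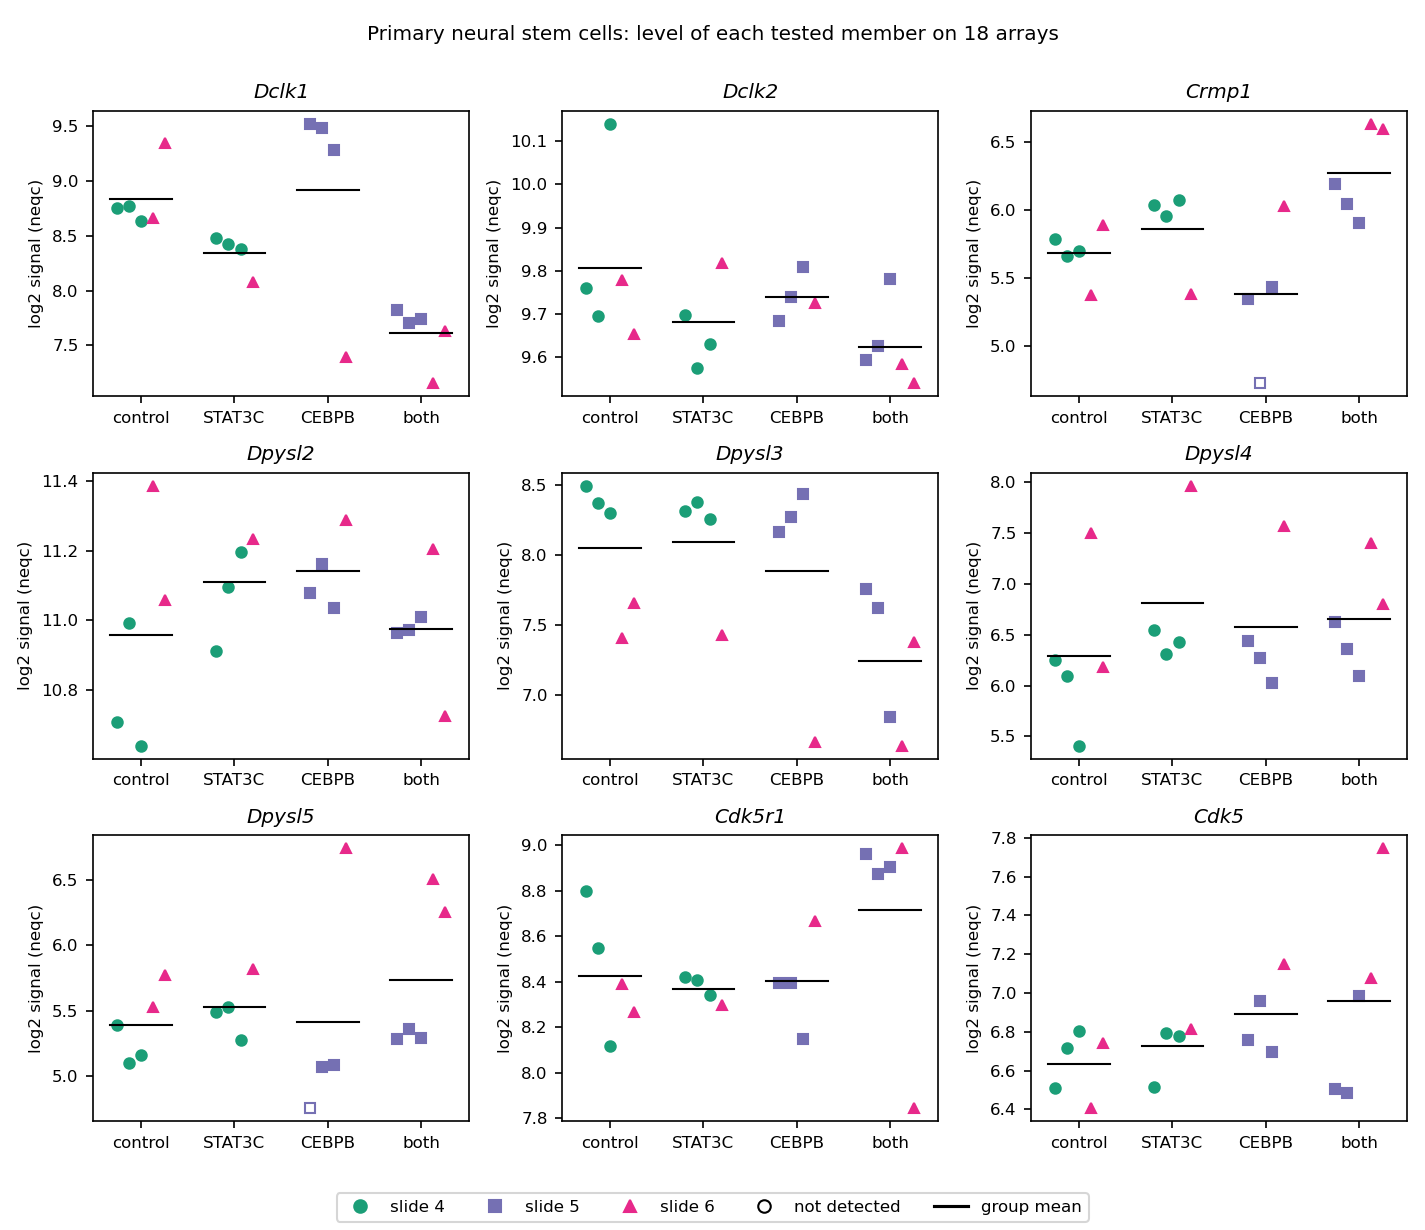
Log2 signal of the 9 genes that passed the detection filter on the 18 NSC arrays, by vector, with 1 point per array, symbols by slide, open symbols for arrays without detection and a line at the group mean. Dclk1 lies at 7.15 to 7.82 with both vectors and at 8.64 to 9.35 in control, and Dpysl5 is highest on slide 6 in each group.

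With both vectors, 3 of 9 genes tested in NSC were called, 2 up and 1 down, where 2.84% of all 10858 genes were called. Relative to CEBPB alone 2 members were called, where 6.47% of genes were. Relative to STAT3C alone no member was, where 0.341% of genes were (5 members had an unadjusted p below 0.05 by limma). STAT3C alone called 0% of genes and CEBPB alone 0.0276%, with no member among them (1 and 2 members with an unadjusted p below 0.05). The non-additivity term called 0.0368% of genes and no member (3 with an unadjusted p below 0.05). The median change of the 9 genes with both vectors was 0.25, against 0.01 over all genes. Dclk1 and Crmp1 had non-overlapping arrays between both vectors and control, where 2.78% of all genes were.

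Among the other NSC genes, Dpysl3 read 8.49, 8.37, 8.30, 7.41 and 7.66 in control and 7.75, 7.62, 6.84, 6.64 and 7.38 with both vectors, a change of -0.80 (SE 0.29, limma adjusted p = 0.151). The groups overlapped, since the slide 6 controls were as low as the slide 5 arrays with both vectors. Cdk5 changed by 0.69 with both vectors (SE 0.20, limma adjusted p = 0.0769) and by 0.71 with CEBPB (SE 0.22, limma adjusted p = 0.299). Without the replicate 4 arrays the Cdk5 change with both vectors was 1.01 (adjusted p = 0.0489), from 1 array per group on slide 6, at 6.74 and 7.75. Dpysl4 stood at 7.40 to 7.97 on the 4 replicate 4 arrays and at 5.41 to 6.80 on the 14 others, and its largest change was 0.70 with STAT3C (SE 0.25, limma adjusted p = 0.854). By their main probes Dclk2 and Dpysl2 varied little, from 9.54 to 10.14 and from 10.64 to 11.38, with changes of -0.21 (SE 0.14) and -0.15 (SE 0.16) for both vectors. Another Dpysl2 probe, near background, changed by 0.725 with both vectors (limma adjusted p = 0.0724 over 17374 detected probes). Relative to STAT3C that probe differed by 0.981 (limma adjusted p = 0.0823). A further Dpysl2 probe changed by 0.068 with both vectors (limma adjusted p = 0.918). Cdk5r1 read 8.80, 8.55, 8.12, 8.39 and 8.27 in control and 8.96, 8.87, 8.90, 8.99 and 7.85 with both, a change of 0.27 (SE 0.26, limma adjusted p = 0.678). Its 4 high arrays with both vectors lay above all controls and replicate 5 below them, and without replicate 5 the change was 0.75 (adjusted p = 0.0271). Relative to CEBPB, on the slide 5 arrays left without the replicate 4 arrays, Cdk5r1 differed by 0.60 (adjusted p = 0.014) and Dpysl3 by -0.89 (adjusted p = 0.00647), against 0.34 (adjusted p = 0.363) and -0.51 (adjusted p = 0.184) with all arrays.

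**Figure D5:**
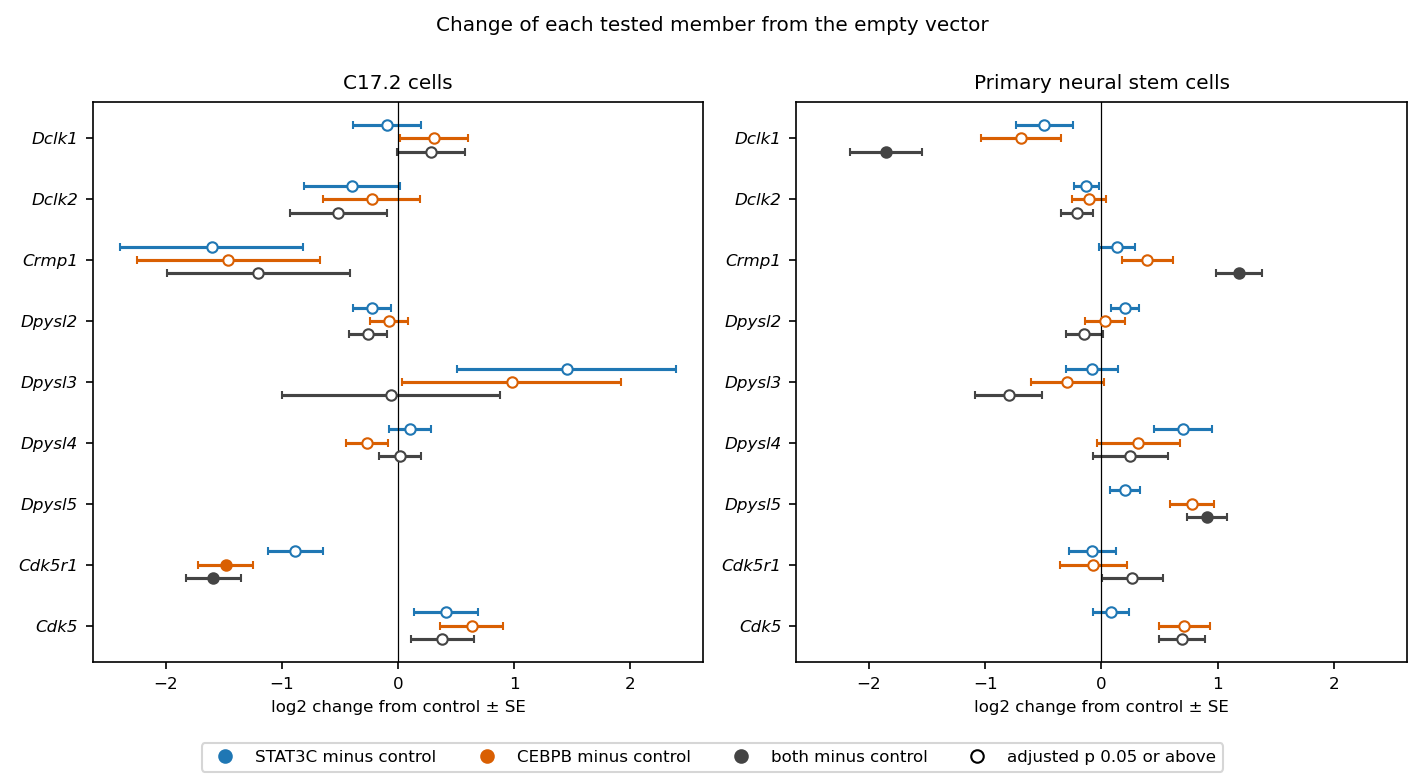
Change of each gene from the empty vector on the log2 scale (horizontal, estimate ± SE) in C17.2 (left) and NSC (right), for STAT3C, CEBPB and both vectors. Filled points have an adjusted p below 0.05, which are Cdk5r1 with CEBPB and with both vectors in C17.2, and Dclk1, Crmp1 and Dpysl5 with both vectors in NSC. Dpysl5 was not tested in C17.2.

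The joint fit of all 34 arrays, which has no slide term, tested whether a change from control differed between the cell types. The changes of Cdk5r1 differed by -1.39 with CEBPB (SE 0.32, limma adjusted p = 0.022) and by -1.81 with both vectors (SE 0.31, limma adjusted p = 0.00363), lower in C17.2 each time. It was the 1 member of 9 called in either comparison, where 1.49% and 1.33% of genes were. Without C17.2 control replicate 1 or C17.2 CEBPB replicate 2 the CEBPB difference was not called (largest adjusted p = 0.0626). With STAT3C the Cdk5r1 difference was -0.78 (SE 0.32, limma adjusted p = 0.507), and no member was called, where 0.0256% of genes were (3 members with an unadjusted p below 0.05 by limma). The Dclk1 difference with both vectors was 1.60 (SE 0.48, limma adjusted p = 0.084) and that of Crmp1 was -1.87 (SE 0.82, limma adjusted p = 0.263), so neither is shown to differ between the cell types.

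Lists of other genes of the same pathways were read beside these. With both vectors against control, 0.577% of all genes were called in C17.2 and 2.84% in NSC. The share of all genes with an unadjusted p below 0.05 is not given, so counts at that level are no result about the lists. In C17.2, of 13 neuronal microtubule proteins, 9 growth cone and neurofilament proteins, 11 partners of Cdk5, reelin and Lis1, and 7 collapsin receptors and CRMP kinases or partners that were tested, 1 gene was called over the 3 comparisons with control (23 of 120 tests had an unadjusted p below 0.05 by limma). This was Vldlr, a reelin receptor, which rose by 1.34 with both vectors, from 8.28 ± 0.32 to 9.62 ± 0.23 (SD, n = 4 each, SE 0.28, limma adjusted p = 0.0472). In NSC 17, 11, 12 and 9 genes of these lists and 1 other doublecortin-domain or dihydropyrimidinase relative were tested, and again 1 was called (20 of 150 tests had an unadjusted p below 0.05). Fyn, a Src-family kinase that phosphorylates Dab1 in reelin signalling, fell by 1.07 with both vectors, from 8.34 ± 0.43 (n = 5) to 7.51 ± 0.42 (n = 5; SE 0.22, limma adjusted p = 0.0149). The median change with both vectors was -0.03 for microtubule proteins, 0.14 for growth cone proteins, -0.12 for the Cdk5, reelin and Lis1 partners and -0.14 for collapsin receptors in NSC, against 0.01 over all genes. In C17.2 the same medians were -0.14, 0.04, -0.08 and -0.12, also against 0.01.

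Markers of cell types were read for the same comparisons. Of all NSC genes, both vectors called 2.84% against control, 0.341% against STAT3C and 6.47% against CEBPB. In C17.2 no marker was called (14 of 72 tests had an unadjusted p below 0.05 by limma). In NSC with both vectors 0 of 12 young neuron markers were called (5 of 36 tests over the 3 comparisons had an unadjusted p below 0.05 by limma), and 1 each of the stem and radial glia, astrocyte and oligodendrocyte lists fell. Sox2 fell by 0.98 (SE 0.23, limma adjusted p = 0.0335), Aqp4, an astrocyte water channel, by 1.76 (SE 0.41, limma adjusted p = 0.0287), and Mbp, a myelin protein, by 1.07 (SE 0.15, limma adjusted p = 0.00145). Mbp was detected on 2 of 5 arrays in each of these groups, with plain means of 5.21 and 4.91. Aqp4 was detected on 2 of 5 arrays with both vectors, at a mean of 4.84, so background limits the size of its falls. Relative to STAT3C alone Mbp was the 1 marker called, at -0.97 (limma adjusted p = 0.0191). Relative to CEBPB alone 3 of 6 oligodendrocyte lineage markers fell and 0 of 6 had a positive change, with Cnp, a myelin enzyme, at -0.87 (limma adjusted p = 0.00366), Olig2 at -0.59 and Mbp at -0.57. In that comparison Hes1 and Sox2 of 7 stem markers fell, by 0.53 and 0.63, as did Aqp4, by 1.65, and 0 of 12 young neuron markers were called (3 with an unadjusted p below 0.05 by limma). The summed signal of young neuron markers ran from 3620 to 6730 in NSC control and from 2400 to 7210 with both vectors, and that of oligodendrocyte lineage markers from 10100 to 20400 and from 11000 to 22600. Of 5 microglia and macrophage markers with a probe, Cx3cr1 and Ptprc were undetected on all 34 arrays. From that list 3 passed the detection filter in NSC and 1 in C17.2. Of 5 endothelial markers Cldn5 was undetected on all 34 arrays, and 1 passed the filter in each cell type. Of 6 pericyte and meningeal fibroblast markers NSC arrays detected 1 at most, and C17.2 arrays detected Col1a1 throughout. The 2 erythroid genes with a probe were not tested in either cell type. The part of these markers in the changes of Dclk1, Crmp1 and Dpysl5 was not tested.

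The genes whose levels ran most like Cdk5r1 over the 16 C17.2 arrays were Mdh1 (Pearson r 0.931), Acad8 (0.928), Ube2o (0.891), Acaa2 (0.884) and Prpsap1 (0.882). Mdh1 encodes a malate dehydrogenase, and Acad8 and Acaa2 encode mitochondrial enzymes of acyl-CoA metabolism. Over the 18 NSC arrays they were Ccdc112 (0.87), Slc7a6 (0.787), Atp1b3 (0.78), Epop (0.776) and Sub1 (0.766), so no gene stood in both sets of 5. These correlations are descriptions over arrays that share vectors and slides. Dcx passed the filter in neither cell type and was not compared in this way.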

How the data were processed

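Total RNA, 200 ng per array, was hybridised to 34 Illumina MouseWG-6 v2 arrays on 6 slides. The deposited file of every array lists 45281 probes, and per the file headers it holds a bead intensity and a detection p-value for each. Intensities below 0 occur in the deposited files, so some background subtraction by the authors preceded them, by a method not given in the sources used here. A deposited series matrix gives values that the authors had normalised, read as log2 from their fit against log2 intensity (slopes 0.826 to 0.991 over 1890 bright probes). Their transform and centring are not given in the sources used here, and they served as an alternative. BeadStudio and lumi are named, without versions, per the submitters' processing notes.

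Normalisation was by cell type, with neqc of limma 3.58.1 (R 4.3.3), which uses the detection p-values, an offset of 16, quantiles and log2. Probes with 1 gene symbol (34885) were kept when 4 or more arrays of a cell type had a detection p below 0.05, and the brightest kept probe stood for a gene. This left 9699 genes for C17.2 and 10858 for NSC, and 11713 when all 34 arrays were fitted jointly. lmFit and eBayes of limma were run with two-sided tests, adjusted by Benjamini-Hochberg over all genes and called below 0.05, with slide as a fixed term in NSC. The scripts were tested on simulated data. A bound sets the bright group's mean against, on each dim array, the higher of the lowest detected level and the probe's own level. The number of arrays limits the precision. 0 pairs of arrays held identical values.

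The members and lists were chosen with earlier results of these data known. The text names the 10 members, up to 3 rises and 3 falls per list and comparison with control, and the 5 genes most correlated with Cdk5r1. Not every probe of a member is described. Alternatives changed the offset, the values, the detection filter, the probe summary, array weights, the slide term and the arrays left out. Fitting each probe apart and splitting the slides by Xist detection were added after seeing the data.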

Additional observations from a re-analysis of the deposited data

Results flagged for a closer look

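Of 68 groups of 4 or 5 arrays (17 gene and cell type pairs in 4 groups each), 16 had 1 array far from the others by Dixon's ratio at 95%, where chance flags about 1 in 20. In C17.2 these were Crmp1 at 5.86 on control replicate 3 and 7.93 on CEBPB replicate 3, Dpysl3 at 5.48 and Cdk5 at 6.89 on CEBPB replicate 3, and Cdk5 at 5.49 on STAT3C+CEBPB replicate 1. In NSC, 7 of 11 lay on replicate 4 arrays, which lacked Xist signal. They were Dclk1 at 7.39 with CEBPB and 7.15 with both vectors, Dpysl5 at 6.75 and Dpysl3 at 6.67 with CEBPB, and Crmp1 at 5.38, Dpysl3 at 7.42 and Dpysl4 at 7.97 with STAT3C. The others were Dclk1 at 9.35 on control replicate 5, Dclk2 at 10.14 on control replicate 3, Cdk5r1 at 7.85 on STAT3C+CEBPB replicate 5 and Cdk5 at 6.51 on STAT3C replicate 1.

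The change of Cdk5r1 from control differed between C17.2 and NSC by a test of the difference itself, at -1.39 with CEBPB (limma adjusted p = 0.022) and -1.81 with both vectors (limma adjusted p = 0.00363). The C17.2 part of this difference may be one of vector or of slide, which cannot be told apart.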

How the results depend on the processing

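No paired analysis was possible because the labels give no replicate numbers. Of 485 repeats of called member values, 450 kept call and direction, and 1 turned, Dclk1 with both vectors minus CEBPB, at 0.001 on slide 6 alone, where CEBPB is 1 array. Of 3726 values uncalled in both fits, 156 changed sign, and 53 uncalled values were called under an alternative. The causes were not tested, beyond the fewer arrays where slides or arrays were left out.

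Counts of members called moved as follows. The share of all genes called under each alternative is not given here, so these counts are no result about the members. In C17.2, array weights gave 1 with STAT3C (from 0) and 2 with CEBPB (from 1), and the first principal component as a covariate gave 0 with CEBPB. Leaving out 1 array, the CEBPB count ran from 0 to 2. For NSC with both vectors against control (3) it was 1 without a slide term, 5 with slides split by Xist detection (added after seeing the data), 0 on slide 6 alone, and 3 to 5 leaving out 1 array. Against STAT3C (0) it was 1 with the offset of 50, deposited values, detection on every array of a group, the mean of detected probes, joint normalisation or without the 4 arrays lacking Xist, 2 with array weights or the Xist split, and 0 to 3 leaving out 1 array. Against CEBPB (2) it was 1 with the mean of detected probes, 6 with array weights, 0 without a slide term or on slide 6 alone, 4 on slide 5 alone or without the 4 arrays lacking Xist, and 2 to 4 leaving out 1 array. NSC non-additivity (0) gave 4 with array weights, 1 without those 4 arrays, and 0 to 1 leaving out 1 array. The controls (5) gave 2 with deposited values and 3 with NSC controls of slide 6 alone. The difference between cell types ran from 0 to 2 for CEBPB and from 1 to 2 for both vectors leaving out 1 array. Signals near background limit Dcx, Dpysl5, Crmp1 and, in C17.2, Dclk1 and Dpysl4.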
